A study of Arabidopsis thaliana with 4 samples.

Results

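The FT and TFL1 family of the thale cress, Arabidopsis thaliana, was followed across 4 organs of the laboratory accession Col-0. The family was taken by locus code as 6 genes of the 34288 loci in the authors' table: FT (AT1G65480), TSF (AT4G20370), TFL1 (AT5G03840), ATC (AT2G27550), BFT (AT5G62040) and MFT (AT1G18100). Each of the 6 had a row of its own with a usable status in all 4 organs. Siliques, which are the fruits with the seeds developing in them, and flowers came from 5-week-old plants in soil. Roots and leaves came from 2-week-old plants grown on MS plates. What the labels call leaves is, by the growth protocol, the aerial part of these plants. All plants were untreated Col-0 in long days at 22 °C. Each organ had 1 library, so no value has a replicate error and no test was possible, and age and medium cannot be told apart from organ in any comparison of siliques or flowers with roots or leaves. The only measure of error is the interval that the authors' table puts around each value.

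The family encodes small proteins that resemble phosphatidylethanolamine-binding proteins and act as mobile signals of flowering and growth. FT is the florigen: it is made in the phloem companion cells of leaves in long days, travels to the shoot apex and there joins the bZIP factor FD and 14-3-3 proteins to turn on genes of floral identity. TFL1 competes for the same partners and keeps the shoot apex indeterminate. MFT stands apart from both and is known for its part in seed germination and the response to abscisic acid.

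The coding sequences show how alike the members are and where they differ. FT and TSF were identical at 82.1% of the bases over 175 aligned codons, TFL1 and ATC at 68.2%, and FT and TFL1 at 60.7%. The longest exact run shared by the transcripts of 2 members was 29 bases, between FT and TSF. The 27-base windows that follow, all in coding sequence that spans an intron, hold in capitals the codon aligned with codon 85 of FT, because the exchange of this residue between FT and TFL1 is known to turn promotion of flowering into repression and back. They were read from the TAIR10.1 RefSeq genome on the strand of each gene.
FT: cacctccgagaaTATctccattggttg
TSF: caccaacgagaaTATctccactggttg
TFL1: tttctaaaagaaCACctgcactggatc
ATC: tatctgagagagCACttgcactggatt
BFT: tatatgcgtgaaTATctgcattggatg
MFT: aacatgagagaaTGGgtccactggatt
FT and TSF share the tyrosine codon, TFL1 and ATC, at codons 88 and 86, carry a histidine codon, and MFT, at codon 83, has a tryptophan codon. BFT carries TAT at codon 85, as FT does, although by sequence it is grouped with TFL1. The windows lie at chr1:24332565-24333304 (FT, plus strand), chr4:11001530-11002080 (TSF, minus), chr5:1025105-1025337 (TFL1, minus), chr2:11774013-11774157 (ATC, plus), chr5:24923153-24923266 (BFT, plus) and chr1:6229162-6229314 (MFT, minus), introns included. Each gene model used has 4 exons.

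FT was mainly a silique transcript in these libraries. Its level, given in FPKM (a fragment count divided by the transcript's length and the library's depth), was 154 in siliques, 6.80 in flowers, 0.00600 in roots and 1.01 in leaves. The authors' intervals ran to 316 in siliques, 18.3 in flowers, 0.0180 in roots and 3.43 in leaves, and each began at 0. Siliques stood highest, flowers and leaves followed and roots came last, and since every interval reaches 0, no neighbouring levels in that order were separated by them. In siliques FT lay above 97.9% of the 34071 loci with a usable status in all organs, in flowers above 57.8% and in leaves above 47.6%. In FPKM, FT was 22.7-fold higher in siliques than in flowers and 153-fold higher in siliques than in leaves. The locus in the table is at chromosome 1, 24331427 to 24333934 (TAIR10), and no other annotated gene overlaps it. The number of fragments behind each value is not known.

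TSF, the close relative of FT that also promotes flowering, was near 0 throughout. It had 0.0533 FPKM in siliques and 0.132 in flowers, and was listed at 0 in roots and leaves. The upper ends of its intervals were at most 0.453 FPKM, in flowers. TSF stayed under 1 FPKM in every organ and was left out of the comparisons, as was BFT. The sources used here do not give how fragments that fit both FT and TSF were assigned. The TSF locus is at chromosome 4, 11000770 to 11002996.

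ATC, a relative of TFL1 that represses flowering and is known to move through the plant, was a root transcript. It was listed at 0 in siliques, and had 0.0345 FPKM in flowers, 55.6 in roots and 0.668 in leaves. The upper ends of the intervals were 0.123 FPKM in flowers, 114 in roots and 2.32 in leaves. Roots were thus the only organ in which ATC passed 1 FPKM, and there it lay above 92.9% of the usable loci. In FPKM, ATC was 83.2-fold higher in roots than in leaves. Its locus is at chromosome 2, 11773250 to 11774681, with no other annotated gene over it.

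TFL1, the repressor that keeps the inflorescence apex growing, was also highest in roots, at a lower level. It had 1.34 FPKM in siliques, 3.22 in flowers, 6.71 in roots and 0.453 in leaves. The upper ends of the intervals were 3.78, 8.61, 16.1 and 1.36 FPKM in the same order. Roots came first, then flowers, siliques and leaves, and all neighbouring intervals overlapped. TFL1 is known for its action in the shoot apex, and markers of that tissue did not follow the same order. The homeobox gene STM (AT1G62360), which maintains the shoot meristem, had 10.7 FPKM in siliques, 41.3 in flowers, 0.0175 in roots and 2.31 in leaves. The stem cell regulator WUS (AT2G17950) had 9.42 FPKM in flowers and at most 0.0180 in the other organs. The peptide gene CLV3 (AT2G27250) stayed at or under 0.0687 FPKM. The TFL1 locus is at chromosome 5, 1024640 to 1025859.

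BFT, which represses flowering under salt stress, was low in every organ. It had 0.822 FPKM in siliques, 0.211 in flowers, 0.0114 in roots and 0.497 in leaves, with upper ends of 2.87, 0.727, 0.0341 and 1.72 FPKM in the same order. Its order, siliques first and roots last, was that of FT except that flowers and leaves changed places. The locus at chromosome 5, 24922809 to 24923709, ends 64 bases before that of AT5G62050 on the other strand, and the 2 annotated genes overlap at their ends.

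MFT was highest in roots. It had 1.13 FPKM in siliques, 1.08 in flowers, 8.01 in roots and 0.865 in leaves, with upper ends of 4.05, 3.90, 20.4 and 3.26 FPKM in the same order. Siliques, flowers and leaves lay close together, and in FPKM the silique value was 1.30 times that of leaves. The table gives MFT the interval from 6224448 to 6230188 on chromosome 1, which is the same interval as that of AT1G18090 on the other strand, and the annotation also places an antisense RNA, AT1G05383, across MFT. The sources used here do not give the strand of the reads, so reads from these genes cannot be told apart where they overlap. AT1G18090 had 4.36 FPKM in siliques, 5.59 in flowers, 3.21 in roots and 4.85 in leaves, and was thus lowest where MFT was highest.

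**Figure D1:**
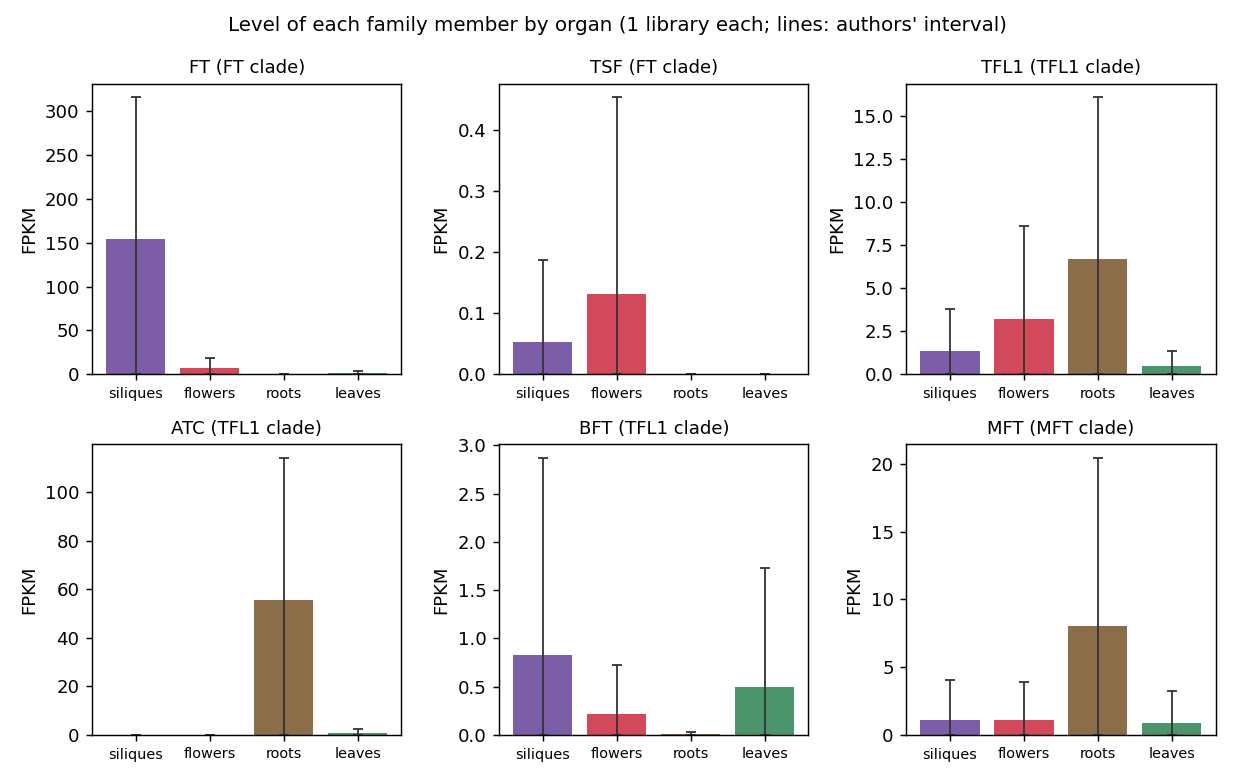
Level in FPKM (vertical axis, its own scale in each panel) of the 6 family members in siliques, flowers, roots and leaves (horizontal axis); bars are the value of the 1 library of each organ and lines the authors' interval, whose lower end is 0 in every case. FT stands out in siliques at 154 FPKM and ATC in roots at 55.6 FPKM, TFL1 and MFT are highest in roots, and TSF and BFT stay under 1 FPKM.

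Since FPKM is scaled to length, the members can be set side by side within an organ. The 6 genes summed to 158 FPKM in siliques, 11.5 in flowers, 70.4 in roots and 3.49 in leaves. FT held 97.9% of the family's sum in siliques and 59.2% in flowers, where TFL1 held 28.1%. ATC held 79.1% in roots, followed by MFT with 11.4% and TFL1 with 9.53%. In leaves no member dominated: FT held 28.9%, MFT 24.8%, ATC 19.1%, BFT 14.2% and TFL1 13.0% of a small sum. The promoters of flowering, FT and TSF, summed to 154 FPKM in siliques, 6.94 in flowers, 0.00600 in roots and 1.01 in leaves. The TFL1 group, TFL1, ATC and BFT, summed to 2.16, 3.47, 62.4 and 1.62 FPKM in the same order. The first sum thus exceeded the second in siliques and flowers and lay below it in roots and leaves. All member intervals begin at 0, so they do not separate the members behind these sums in any organ. In leaves the 2 sums were close, and the FT interval alone ran to 3.43 FPKM.

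**Figure D2:**
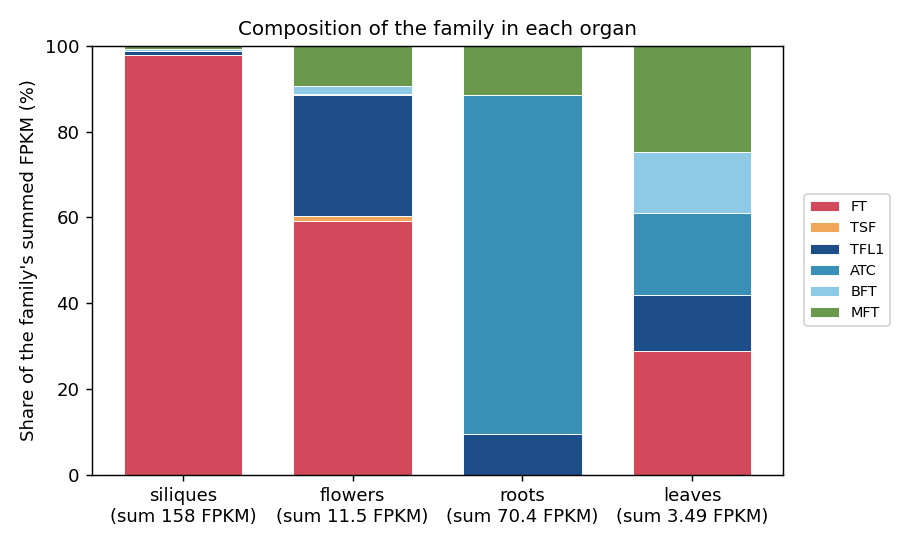
Share in percent (vertical axis) of the family's summed FPKM that each of the 6 genes holds in siliques, flowers, roots and leaves (horizontal axis, with the sum under each organ). FT fills nearly the whole bar of siliques, at 97.9%, and ATC most of that of roots, at 79.1%, while the leaf bar is spread over 5 genes at a sum of 3.49 FPKM.

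Organ specificity was described by the tau index on log2(FPKM + 1), which is 0 for equal levels and 1 for a gene found in a single organ. ATC had a tau of 0.955, above 92.5% of the 23477 compared loci, those with a usable status and at least 1 FPKM in some organ. FT followed with 0.818, above 84.9% of them, MFT with 0.680 (79.3%) and TFL1 with 0.565 (74.6%). On FPKM without the log, which gives the peak more weight, tau was 0.996 for ATC and 0.983 for FT.

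The 4 members at 1 FPKM or more, FT, TFL1, ATC and MFT, were then compared between organs on log2(FPKM + 1), and a difference of at least 1 (2-fold) was counted. Between siliques and flowers, of the same age and medium, 1 of the 4 passed, against 21.9% of all compared loci (8.42% higher and 13.5% lower in siliques). It was FT, with a log2 ratio of 4.32, higher than 99.3% of those loci. TFL1 stood at -0.85, ATC at -0.05 and MFT at 0.03. Between roots and leaves, again of the same age and medium, 3 of the 4 were at least 2-fold higher in roots and none was lower, against 23.6% higher, 13.4% lower and 37% in either direction over all compared loci. They were ATC at 5.09, TFL1 at 2.41 and MFT at 2.27. FT stood at -0.997 and just missed the count.

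Across ages and media, all 4 members passed between siliques and roots, against 39.3% of the compared loci (19.8% higher and 19.5% lower in siliques). FT was higher in siliques at 7.27, and ATC at -5.82, MFT at -2.08 and TFL1 at -1.72 were lower. Between flowers and roots 3 passed, against 40.3% of the loci (23.8% higher and 16.5% lower in flowers): FT at 2.96, ATC at -5.77 and MFT at -2.12, with TFL1 at -0.87. Between siliques and leaves only FT passed, at 6.27, against 25.3% of the loci (16.9% higher and 8.4% lower in siliques). Between flowers and leaves 2 passed, against 29.4% (21.6% higher and 7.79% lower in flowers): FT at 1.96 and TFL1 at 1.54. On this scale neither reached 4-fold, which 10.5% of the loci did in this pair. In FPKM without the pseudocount, the flower level was 6.75 times the leaf level for FT and 7.11 times for TFL1. Their leaf levels, 1.01 and 0.453 FPKM, are near or below the pseudocount of 1 FPKM. In all, 14 of the 24 combinations of a compared member and a pair of organs passed, and FT had the same sign in the 3 comparisons of siliques with another organ, which share the silique library. The ratios against roots for FT, and against siliques or flowers for ATC, are set by the pseudocount of 1 FPKM, since those levels are near 0. Of the compared loci, 12.4% in siliques, 14.6% in flowers, 13.4% in roots and 11.7% in leaves had an interval that begins above 0. All 24 member intervals began at 0. With the further condition that the authors' intervals do not overlap, none of the 36 combinations over all 6 members could therefore pass. That condition left 0.392% of the compared loci between siliques and flowers, 1.59% between siliques and roots, 0.575% between siliques and leaves, 1.67% between flowers and roots, 0.737% between flowers and leaves and 1.41% between roots and leaves.

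**Figure D3:**
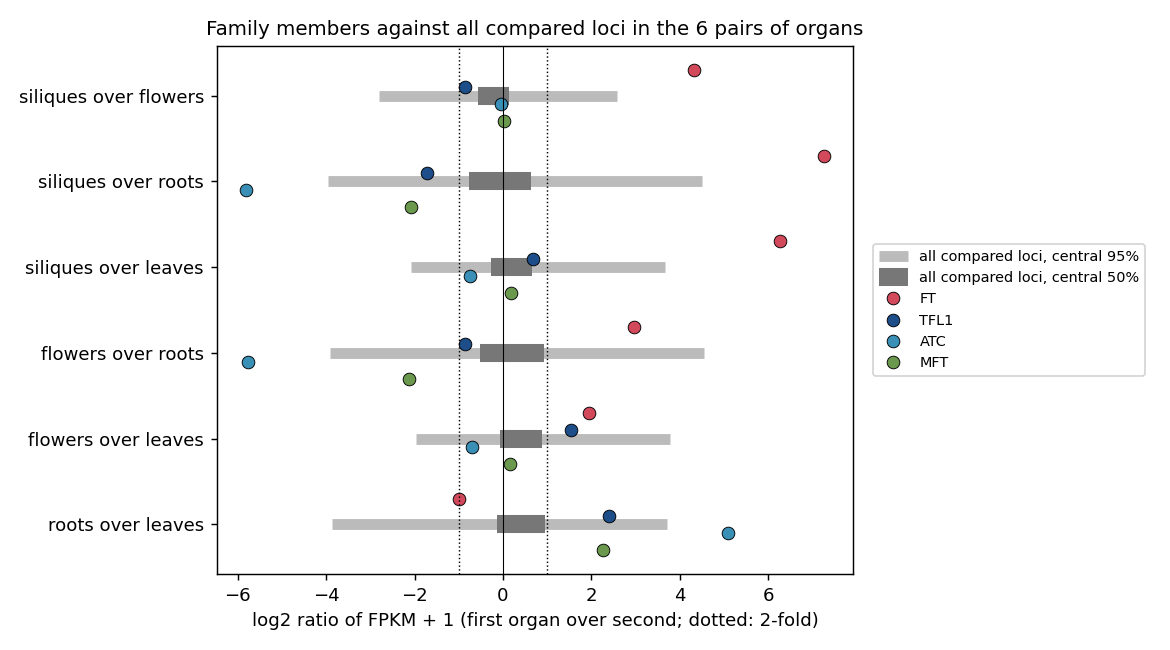
Log2 ratio of FPKM + 1 (horizontal axis) in the 6 pairs of organs (vertical axis, first organ over second) for FT, TFL1, ATC and MFT (points), with the central 50% and 95% of all 23477 compared loci as bars and dotted lines at 2-fold. FT lies outside the central 95% in the 3 pairs with siliques on top, and ATC in the 3 pairs that include roots.

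The promoters of FT, TSF and ATC are shown because these genes mark the extremes of the family: FT with a single high organ, its close relative TSF with none and ATC high in another organ. The 250 bases before the annotated start of each gene were read from the TAIR10.1 genome, at chr1:24331123-24331372 (FT, plus strand), chr4:11003011-11003260 (TSF, minus) and chr2:11772937-11773186 (ATC, plus). Capitals mark matches on either strand to TGTGNNATG or TGTGNNNATG, forms of the element known to be bound by CO in the FT promoter, to the CCAAT box bound by NF-Y factors, to the G-box CACGTG and to the seed element CATGCA.
FT upstream: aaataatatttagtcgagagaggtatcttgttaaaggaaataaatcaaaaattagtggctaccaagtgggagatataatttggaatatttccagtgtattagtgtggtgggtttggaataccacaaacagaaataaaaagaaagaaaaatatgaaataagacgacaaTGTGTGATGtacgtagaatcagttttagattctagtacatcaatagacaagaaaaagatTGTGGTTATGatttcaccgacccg
TSF upstream: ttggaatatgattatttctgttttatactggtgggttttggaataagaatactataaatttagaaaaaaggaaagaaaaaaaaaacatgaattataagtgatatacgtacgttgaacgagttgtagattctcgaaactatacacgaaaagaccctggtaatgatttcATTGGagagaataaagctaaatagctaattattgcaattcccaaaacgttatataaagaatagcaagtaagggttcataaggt
ATC upstream: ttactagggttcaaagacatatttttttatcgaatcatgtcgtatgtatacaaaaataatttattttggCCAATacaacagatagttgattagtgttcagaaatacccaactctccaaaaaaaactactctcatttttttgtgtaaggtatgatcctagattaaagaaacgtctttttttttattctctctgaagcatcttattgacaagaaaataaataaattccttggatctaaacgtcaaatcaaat
FT holds TGTGTGATG at positions -83 to -75 before its start and TGTGGTTATG at -24 to -15. A match to TGTGNNATG was found in 3.34% and to TGTGNNNATG in 3.90% of the 27443 upstream regions of the same length of protein-coding genes. TSF holds neither, but a CCAAT box on the minus strand at -83 to -79, and ATC a CCAAT box at -181 to -177. CCAAT was found in 46.0% of the regions. CACGTG, in 6.49% of all regions, and CATGCA, in 8.43%, were found in none of the 6 members' windows. These matches describe the letters in the windows and not binding.

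The loci with the profile most like each member were those with the smallest distance in log2(FPKM + 1) over the 4 organs. For FT they were GSTF12 (AT5G17220), a glutathione transferase needed for the tannins of the seed coat, at a distance of 0.596, AT3G02670 at 0.844 and LCR48 (AT3G48231) at 1.04. GSTF12 had 173 FPKM in siliques, 10.5 in flowers, 0.0584 in roots and 0.865 in leaves. For ATC they were the laccase gene LAC3 (AT2G30210) at 0.265, AT5G26290 at 0.319 and AT1G18980 at 0.338. LAC3 had 0.0573 FPKM in siliques, 0.00556 in flowers, 49.0 in roots and 0.482 in leaves. For TFL1 they were AT4G15120 at 0.343, AT2G14095 at 0.409 and AT5G24390 at 0.456, and for MFT AT3G60490 at 0.219, AT4G24110 at 0.224 and AT5G05400 at 0.242. A profile over 4 organs fits many genes: with a distance on organ shares instead, 1 of the 3 loci named for FT, AT3G02670, was named again and none of those for TFL1, ATC or MFT.

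On log2(FPKM + 1), genes known to activate FT differed less between siliques and flowers than FT did. Of the 10 compared activators, 2 were at least 2-fold higher in siliques than in flowers, as were 8.42% of the compared loci, and none was lower; the median log2 ratio was 0.27, against -0.19 over all loci. They were the clock-linked genes FKF1 (AT1G68050), a light receptor of the evening, with 8.86 FPKM in siliques and 0.425 in flowers, and GI (AT1G22770) with 21.5 and 9.74. The log2 ratio of FKF1, 2.79 against 4.32 for FT, is lowered by the pseudocount of 1 FPKM, which exceeds its flower level. NF-YB2 (AT5G47640) and NF-YC3 (AT1G54830), subunits of the NF-Y complex, were highest in siliques, at 48.3 and 43.5 FPKM, against 26.0 and 35.8 in flowers, 16.1 and 22.1 in roots and 24.5 and 15.7 in leaves. CO (AT5G15840), the central activator of FT in long days, was near 1 FPKM or below throughout, with 0.575 in siliques, 1.11 in flowers, 0.491 in roots and 0.400 in leaves. Between flowers and leaves, 3 activators were lower and 1 was higher in flowers, against 7.79% and 21.6% of all loci. The median of that pair was -0.45, against 0.38 over all loci, and after median-of-ratios scaling 5 were lower and 0 higher. Between siliques and leaves, 1 was lower and 1 higher, against 8.4% and 16.9%, at a median of 0.01, against 0.12. Between roots and leaves, 1 activator was higher and 3 were lower in roots, against 23.6% higher and 13.4% lower over all loci, with a median of -0.13, against 0.34 over all loci. PIF4 (AT2G43010), which activates FT in warm conditions, had 1.48 FPKM in roots and 90.9 in leaves, and NF-YB3 (AT4G14540), another NF-Y subunit, 2.19 and 51.8. NF-YC4 (AT5G63470) had 19.6 FPKM in roots and 47.8 in leaves, and like NF-YB3 and PIF4 was highest in leaves. GI and FKF1 were highest in roots: GI had 46.2 FPKM in roots and 23.96 in leaves, and FKF1 25.7 and 6.28. FT, CO, GI and FKF1 are known to cycle over the day, and the labels give no hour of harvest, so the part of the time of day in these values was not tested. With a pseudocount of 5 FPKM, 1 activator in place of 2 was higher in siliques than in flowers.

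Many known repressors of FT were lower in the reproductive organs than in leaves. Of the 14 compared, 6 were at least 2-fold lower in flowers than in leaves and none was higher, against 7.79% and 21.6% of the compared loci. The median log2 ratio was -0.77, against 0.38 over all loci. Between siliques and leaves, 8 were lower and 1 was higher, against 8.4% and 16.9% of all loci, at a median of -1.22, against 0.12. Between roots and leaves, 7 were lower and 2 were higher in roots, against 13.4% and 23.6% of all loci. The median of that pair was -0.59, against 0.34, and after median-of-ratios scaling 7 were lower and 0 higher. TEM2 (AT1G68840), which binds the FT leader sequence, had 0.109 FPKM in siliques, 0.306 in flowers, 34.9 in roots and 134 in leaves. The related TEM1 (AT1G25560) had 3.47, 4.01, 29.0 and 65.6 FPKM in the same order. The MADS-domain repressor SVP (AT2G22540) had 2.09, 8.43, 27.8 and 69.7 FPKM, and its partner FLC (AT5G10140) 0.672, 3.77, 2.61 and 2.64. Of the AP2-like repressors, TOE1 (AT2G28550) had 1.40 FPKM in siliques, 1.04 in flowers, 43.9 in roots and 42.2 in leaves, and SNZ (AT2G39250) 0.0120, 0.514, 0.128 and 17.3. The highest SMZ (AT3G54990) level was in roots, at 8.88 FPKM, against 2.81 in leaves. The repressors CDF1 (AT5G62430) and CDF3 (AT3G47500), which act on CO and FT, had 16.1 and 20.0 FPKM in siliques, against 7.13 and 27.2 in flowers. Their leaf levels were higher, at 26.1 and 51.3 FPKM. CDF3 is thus among the repressors counted as lower in siliques than in leaves, with a log2 ratio of -1.31. CDF1 is among those counted as lower in flowers than in leaves, with a log2 ratio of -1.74. Between siliques and flowers themselves, 1 repressor, CDF1, was 2-fold higher in siliques and 2, SVP and FLC, were lower, shares close to the 8.42% and 13.5% of all loci. With a pseudocount of 5 FPKM, 0 were higher and 0 lower between these organs, and with one of 0.1 FPKM 4 were lower.

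Of the partners through which FT and TFL1 act, the bZIP factors FD and FDP were lowest in siliques, where FT was highest. FD (AT4G35900) had 0.210 FPKM in siliques, 1.94 in flowers, 8.73 in roots and 2.36 in leaves. Its homologue FDP (AT2G17770) had 0.373, 6.60, 3.28 and 1.53 FPKM in the same order, and AREB3 (AT3G56850), a bZIP factor of the abscisic acid pathway, 13.7, 19.3, 21.1 and 13.2. FD and FDP were at least 2-fold lower in siliques than in flowers, at -1.28 and -2.47 on the log2 scale, as were 13.5% of the compared loci. With a pseudocount of 5 FPKM, 1 of these calls was left. The 12 listed genes of 14-3-3 proteins, which bridge FT and FD, summed to 1425 FPKM in siliques, 1623 in flowers, 2051 in roots and 1414 in leaves. Between siliques and flowers 1 of the 12 was at least 2-fold apart, against 21.9% of all compared loci. It was GRF12 (AT1G26480), at 0.352 FPKM in siliques and 37.8 in flowers. Between roots and leaves 4 of the 12 were, against 37%: GRF10 (AT1G22300), GRF2 (AT1G78300) and GRF4 (AT1G35160) were higher in roots at 1.30, 1.11 and 1.01, and GRF9 (AT2G42590) was lower at -1.14. GRF11 (AT1G34760) had 1.21 FPKM in siliques, 1.87 in flowers, 14.8 in roots and 21.3 in leaves. After a rescaling by the median of ratios, none of the 12 listed 14-3-3 genes was 2-fold higher in roots than in leaves. Of the genes for FT transport, QKY (AT1G74720), NAKR1 (AT5G02600) and SYP121 (AT3G11820) were within 2-fold in both comparisons of like age, and FTIP1 (AT5G06850) lacked a usable status in at least 1 organ.

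Of the floral genes that act downstream of FT, 6 of 9 were highest in flowers, while FUL and SEP3 were slightly higher in siliques and SOC1 was highest in leaves. Of the 9 compared, 8 were at least 2-fold higher in flowers than in leaves, as were 21.6% of the compared loci, with a median log2 ratio of 3.003. The floral identity gene AP1 (AT1G69120) had 1.82 FPKM in siliques, 77.8 in flowers, 0.00832 in roots and 0.0539 in leaves. Its relative CAL (AT1G26310) had 0.350 FPKM in siliques and 7.504 in flowers, and the identity regulator LFY (AT5G61850) 0.0176 and 1.39. SOC1 (AT2G45660), an early target of FT, did not pass in that pair, with 4.26 FPKM in siliques, 34.4 in flowers, 12.9 in roots and 61.1 in leaves. Between siliques and flowers 6 of the 9 were lower in siliques and none was higher, against 13.5% and 8.42% of all loci, with a median of -1.23, against -0.19. FUL (AT5G60910), which also shapes the fruit wall, and SEP3 (AT1G24260) were level between these organs, at 54.2 and 186 FPKM in siliques and 48.7 and 178 in flowers. The factors SPL4 (AT1G53160) and SPL5 (AT3G15270) had 26.0 and 2.49 FPKM in siliques and 61.5 and 35.3 in flowers, and SPL3 (AT2G33810) 40.6 and 67.7. FT at 154 FPKM in siliques thus stood beside AP1, CAL, LFY, SOC1 and SPL5 at 4.26 FPKM or less. FUL, SEP3, SPL3 and SPL4 had 26.0 FPKM or more there.

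Markers of the phloem, in whose companion cells FT is known to be made, differed less between organs than FT did. In summed FPKM the 5 markers reached 336 in siliques, 217 in flowers, 120 in roots and 287 in leaves. Of the 5, SUC2 (AT1G22710), the sucrose loader, was 2-fold higher in siliques than in flowers, with 134 and 65.8 FPKM, a call lost with a pseudocount of 5 FPKM, and none was lower; of all compared loci 8.42% were higher. The proton pump gene AHA3 (AT5G57350) had 107 FPKM in siliques, 77.3 in flowers, 22.5 in roots and 85.5 in leaves. The lectin gene PP2-A1 (AT4G19840) had 77.5, 51.2, 39.9 and 84.8 FPKM in the same order. APL (AT1G79430), a regulator of phloem identity, and SEOR1 (AT3G01680), of sieve elements, had 5.60 and 11.4 FPKM in siliques and 11.1 and 18.4 in leaves, their highest level. Between roots and leaves, 3 of the 5 were at least 2-fold lower in roots and 0 higher, against 13.4% and 23.6% of all compared loci. The median log2 ratio of that pair was -1.07, against 0.34 over all loci. Between siliques and roots, 2 were higher in siliques and 0 lower, against 19.8% and 19.5%. None of the 5 was at 0 in any organ. In whole organs, fewer cells of a type and less RNA per cell cannot be told apart, and the part of the phloem share in the FT levels was not tested.

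None of the listed regulators of MFT was highest in roots. ABI5 (AT2G36270), which activates MFT in response to abscisic acid, had 4.56 FPKM in siliques, 14.1 in flowers, 4.70 in roots and 0.848 in leaves. The DELLA repressor RGL2 (AT3G03450) had 26.7, 41.1, 4.50 and 0.766 FPKM in the same order and RGA (AT2G01570) 32.3, 47.9, 44.3 and 47.2. ABI3 (AT3G24650), a regulator of seed maturation, had 1.09 FPKM in siliques and at most 0.1002 elsewhere. ABI4 (AT2G40220) reached 0.382 FPKM in siliques and lay under the minimum for comparison. Between roots and leaves, 2 of the 5 compared regulators were at least 2-fold higher in roots, ABI5 at 1.63 and RGL2 at 1.64, and 1 was lower, against 23.6% higher and 13.4% lower over all loci. The lower gene was DOG1 (AT5G45830), a dormancy gene, at -2.78, with 0.0844 FPKM in roots and 6.42 in leaves. With a pseudocount of 5 FPKM none of them was 2-fold higher in roots.

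**Figure D4:**
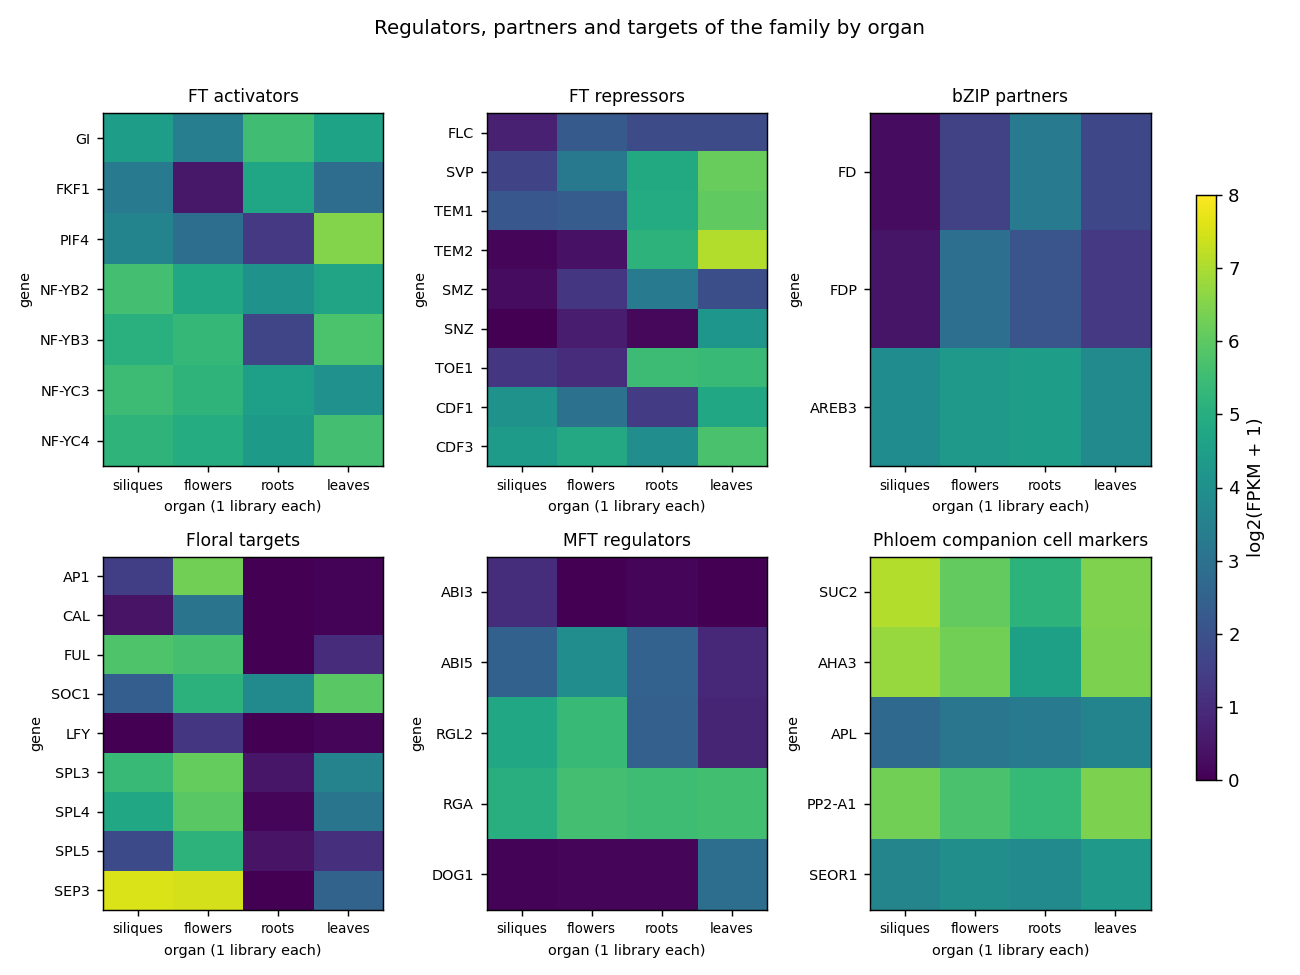
Log2(FPKM + 1) (colour, from 0 to 8) of named activators and repressors of FT, bZIP partners, floral targets, regulators of MFT and phloem markers (rows) in siliques, flowers, roots and leaves (columns), 1 library each. SVP, TEM1 and TEM2 are brighter in leaves than in siliques and flowers, FD is dark in siliques, at 0.210 FPKM, and AP1 is bright only in flowers, at 77.8 FPKM.

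Organ markers bear on how the labels match the libraries. The root genes CASP1 (AT2G36100), COBL9 (AT5G49270), PLT1 (AT3G20840) and IRT1 (AT4G19690) summed to 531 FPKM in roots and to at most 18.1 in the other organs. The seed coat and embryo genes BAN (AT1G61720), TT10 (AT5G48100), LEC1 (AT1G21970) and FUS3 (AT3G26790) summed to 642 FPKM in siliques, 14.2 in flowers, 1.89 in roots and 0.137 in leaves. The flower genes AP3 (AT3G54340), PI (AT5G20240), AMS (AT2G16910) and GRP17 (AT5G07530) summed to 81.9 FPKM in siliques, of which AP3 made up 79.0, and to 957 in flowers. The leaf genes RBCS3B (AT5G38410), PRK (AT1G32060), GLK1 (AT2G20570) and CA1 (AT3G01500) summed to 7008 FPKM in siliques, 3303 in flowers, 11.8 in roots and 6111 in leaves, so that green tissue marks all 3 aerial libraries. RBCS3B and CA1 made up most of the aerial sums and were highest in siliques, at 5068 and 1481 FPKM, against 4099 and 1097 in leaves. PRK and GLK1 were highest in leaves, at 807 and 108 FPKM, against 446 and 13.3 in siliques. BAN alone had 582 of the 642 FPKM in siliques. All 4 of these seed coat and embryo genes were highest in siliques, as FT was, although FUS3 was nearly level with flowers, at 2.98 FPKM in siliques and 2.75 in flowers. The seed genes ABI3, ABI5 and DOG1 together had 5.69 FPKM in siliques, 14.2 in flowers, 4.89 in roots and 7.29 in leaves, with ABI5 highest in flowers and DOG1 in leaves. The part of seed tissue in the FT level was not tested.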

How the data were processed

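RNA of 4 organs, with 1 library each, was sequenced from TruSeq RNA v2 libraries, per the labels' protocols. TopHat and Cufflinks were run on the TAIR10 build, per the submitters' processing notes. The sources used here do not give their versions, the read totals or the confidence level of the intervals. The deposited table gives an FPKM, an interval and a status per locus and organ, per the file headers. Columns were matched to samples by the only title with their initial. Loci with status OK in all organs and at least 1 FPKM in some organ (23477) were compared on log2(FPKM + 1) with Python 3.11.15 and pandas 2.3.3. The rules were run on simulated data without noise, so their error on low or noisy values was not tested. Where a code had 2 rows (NF-YB3, FDP and GRF8), the row with the larger overlap with the annotated gene was used. CIB1, a further activator, is not analysed here.

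Sequences came from RefSeq TAIR10.1, whose nuclear coordinates are those of TAIR10. Of 32115 nuclear loci with a single code, 98.4% overlapped the same gene there. Coding sequences were aligned by codon with Biopython 1.88.

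The members, lists and thresholds were chosen with earlier results of these data known. Named genes are all members, the 3 loci nearest to each compared member, up to 4 list members with the largest log2 ratio in each of 3 pairs of organs, and AP1, FUL, SOC1, LFY, FD and FDP. CO, ABI4, CLV3 and the genes beside or over a member were named after their values were seen. Alternatives were the pseudocount, median-of-ratios scaling, a 4-fold threshold, separate intervals, no filter, tau without the log and another distance.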

Additional observations from a re-analysis of the deposited data

How the results depend on the processing

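No paired analysis was possible because each organ has 1 library. The number of members past 2-fold was within 1.5 times the reported one in all 6 pairs without the filter and after median-of-ratios scaling. With a pseudocount of 0.1 FPKM it was 2 between siliques and flowers and 3 between siliques and leaves. Between flowers and leaves it was 0 with a pseudocount of 5 FPKM and 0 at a 4-fold threshold. With separate intervals it was 0 in all 6 pairs, a condition that all 24 member intervals, with lower ends of 0, cannot meet. No member ratio past 2-fold changed sign under another pseudocount or scaling. FT between roots and leaves passed after scaling, at -1.16. MFT between flowers and leaves, not past 2-fold, turned to -0.10. Scaling moved the median log2 ratio of all compared loci by 0.20 between siliques and flowers, 0.17 between siliques and roots, -0.13 between siliques and leaves, -0.38 between flowers and leaves and -0.34 between roots and leaves. The share of calls that were higher was 38.4% as deposited and 49.5% after scaling between siliques and flowers, 66.8% and 55.6% between siliques and leaves, 73.5% and 52.8% between flowers and leaves, and 63.7% and 47.3% between roots and leaves. Of 48 list counts, 8 moved by over 1.5 times with scaling, 3 with a pseudocount of 0.1 FPKM and 12 with one of 5 FPKM. The cause was not tested. The intervals limit every statement on low levels.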

Other observations

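The nearest genes beside FT were not highest in siliques, while those beside ATC were, like ATC, highest in roots, by smaller ratios. The nearest compared loci beside FT were the chromatin assembly gene FAS1 (AT1G65470), with 5.64 FPKM in siliques, 7.25 in flowers, 6.45 in roots and 5.06 in leaves, and AT1G65481, with 0.118 in siliques and 1.16 in leaves and listed at 0 in flowers and roots. Beside ATC, AT2G27535 had 0.961 FPKM in siliques, 0.257 in flowers, 2.85 in roots and 0.0678 in leaves, and AT2G27580 had 10.9, 11.9, 22.1 and 11.3 FPKM in the same order. Beside TFL1, AT5G03850 was high in all organs and highest in roots, at 273, 399, 437 and 231 FPKM. The neighbour on the other side of TFL1, AT5G03830, was highest in flowers, at 12.4, 19.1, 13.2 and 18.7 FPKM in the same order. These neighbours lie 7387 and 5635 bases from FT, 7106 and 1729 bases from ATC and 2480 and 4056 bases from TFL1.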
